A study of Mus musculus with 8 samples.

Results

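The 10 genes described here encode the core of YAP-TEAD transcription and its readout. They are the coactivators Yap1 and Wwtr1 (the gene of TAZ), the DNA-binding partners Tead1, Tead2 and Tead3, the inhibitory kinases Lats1 and Lats2, the regulators Amotl2 and Ajuba, and the target gene Ankrd1. They were chosen by gene symbol. All 10 had a row in the deposited count table of 12211 rows, and all 10 were among the 11909 genes with enough counts to be tested.

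YAP and TAZ have no DNA-binding domain of their own and act through TEAD proteins, which hold them at promoters and enhancers. In the Hippo pathway the LATS kinases phosphorylate YAP and TAZ, which keeps them in the cytoplasm, and angiomotins such as AMOTL2 bind them there. In fibroblasts, cell spreading, actin tension and a stiff surface are known to bring YAP and TAZ into the nucleus, and Ankrd1, Ccn1, Ccn2, Amotl2, Lats2 and Ajuba are among the genes then transcribed.

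The libraries came from mouse embryonic fibroblasts, connective tissue cells cultured from embryos, grown in serum. There were 4 control libraries, whose genotype is given as WT, and 4 PUS10KO libraries, whose genotype is given as PUS10 KO, numbered 1 to 4 in each genotype. PUS10 is an enzyme that makes pseudouridine in RNA. The sources used here do not give embryo sex, age, strain or the edited part of the gene. Nor do they say whether libraries came from separate cultures, clones or animals, so the p-values measure the spread between these libraries, which may be only technical.

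Total counts ran from 17561114 to 24563499 per library. Pus10 had 40.1 to 51.8 CPM in control and 11.5 to 15.2 CPM in PUS10KO, where CPM is a count relative to the library total after TMM scaling. The Y-linked gene Uty had 0, 1, 0 and 0 counts in control libraries and 796 to 1408 counts in PUS10KO libraries, so that sex chromosome content and genotype cannot be told apart. The fibroblast label was checked against 12 markers, all with a row, whose summed level was 17880 to 22700 CPM in control and 11100 to 17050 CPM in PUS10KO. By edgeR's test 4 of these markers fell and none rose, beside 7.11% and 5.9% of all genes tested, and 8 did not pass. With the block described next 6 fell and 1 rose, beside 19.9% and 19.1% of all genes. DESeq2 and limma voom also called 1 that rose, where 1146 of 12203 genes rose by DESeq2 and 699 of the genes tested by limma voom. Thy1, a fibroblast surface glycoprotein named after its values were seen, had 20.8 to 23.0 CPM in control and at most 0.0551 CPM in PUS10KO. It had 0 counts in PUS10KO 3 and 4. In bulk RNA, fewer cells of a type and less RNA per cell cannot be told apart. Libraries of the same number resembled each other most across genotypes, and different numbers within 1 and 2 or within 3 and 4 less so. A fit with the number as a term (the replicate block) is given beside the values it bears on.

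TEAD proteins recognise the letters CATTCC, or GGAATG read on the other strand, and the sites in the promoter windows of the 10 genes are shown because Ankrd1, Amotl2, Lats2 and Ajuba are known targets of these factors. RefSeq windows of 300 bases, from 250 before to 50 after an annotated transcription start (GRCm38.p6), were at hand for 9 of the 10 genes, with 13 windows in all. The motif was found in 7 of these 9 genes, and in 9 of the 13 windows, where both Wwtr1 windows hold the same site. Of all 32851 windows 14.7% held the motif. It was found in 16.6% of all 27025 genes with a window, in 14.2% of the 9720 such genes of the count table, and in 9 of 25 genes (36%) of a list of YAP and TAZ targets, which holds Ankrd1, Amotl2, Lats2 and Ajuba as well. Each site is written 5′ to 3′ on the strand of its gene, with the motif in capitals and its flanks in lower case.
Ankrd1, first motif base at -210: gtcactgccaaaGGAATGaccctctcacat
Ankrd1, first motif base at -123: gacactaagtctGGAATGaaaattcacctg
Amotl2, first motif base at -65: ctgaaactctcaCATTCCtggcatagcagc
Ajuba, first motif base at -186: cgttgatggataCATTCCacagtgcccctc
Ajuba, first motif base at -164: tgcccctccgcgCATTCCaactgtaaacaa
Lats2, first motif base at 5: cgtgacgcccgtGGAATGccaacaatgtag
Yap1, first motif base at -141: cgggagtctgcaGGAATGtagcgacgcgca
Wwtr1, first motif base at -136: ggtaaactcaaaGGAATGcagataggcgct
Tead3, first motif base at -182: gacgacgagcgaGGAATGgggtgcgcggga

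The Ankrd1 windows printed above are chr19:36120037-36120066 and chr19:36119950-36119979 on the minus strand. GENCODE M21 places both in the untranslated first exon of 1 of the 6 Ankrd1 transcripts, one that begins further upstream than the RefSeq start. The Amotl2 site, chr9:102717727-102717756 on the plus strand, lies in an untranslated exon of 2 of its 14 transcripts, and the Lats2 site, chr14:57746102-57746131 on the minus strand, in one of 2 of its 9 transcripts. The sites of Ajuba (chr14:54577830-54577859 and chr14:54577808-54577837), Yap1 (chr9:8004720-8004749), Wwtr1 (chr3:57576029-57576058) and Tead3 (chr17:28350970-28350999) lie before the annotated gene, all on the minus strand. Wwtr1 has a second RefSeq start from which the same site is at -170, and a second Tead3 window holds 3 further matches.

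Tead2 and Lats1 had no match to CATTCC in their windows, which says only that these letters are not there. The AP-1 motif TGANTCA, often found next to TEAD sites at enhancers, was in 0 of the 9 genes. It was in 8.97% of all genes with a window and in 6% of such genes of the count table. The E-box CANNTG was in 4 of the 9 genes (Yap1, Lats2, Ankrd1 and Ajuba). Its share was 75% of all genes and 66.3% of those of the count table. Both strands were searched for each motif, and in Ajuba the TEAD match at -164 shares its last base with an E-box. A match describes the letters and not the binding of a factor, which was not measured here.

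**Figure D1:**
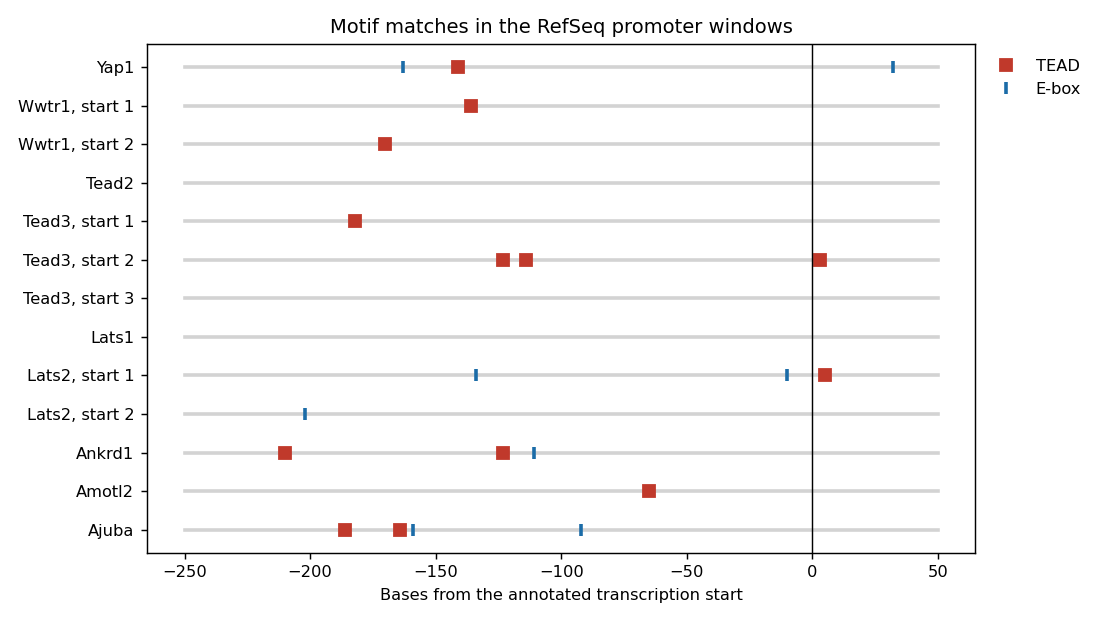
Matches to the TEAD motif (red squares) and the E-box (blue ticks) in the RefSeq promoter windows of 9 genes, by distance in bases from the annotated transcription start (vertical line). TEAD matches stand in 9 of the 13 windows, beside 14.7% of all windows. Ankrd1 has 2 matches, at -210 and -123.

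Ankrd1 was the gene of the 10 that passed the test with genotype as the only term, and its transcript was nearly gone in PUS10KO. It encodes a muscle ankyrin repeat protein of the nucleus and the sarcomere that is induced by stretch in heart and skeletal muscle, and it is widely used as a readout of YAP activity. The gene (ENSMUSG00000024803.9, chromosome 19, 36111961 to 36120099, minus strand, GRCm38) had 72.9, 55.3, 7.57 and 7.23 CPM in control libraries 1 to 4. In PUS10KO libraries 1 to 4 it had 0.22, 0.239, 0.0844 and 0.108 CPM. Every PUS10KO library was far below every control library, and control libraries 1 and 2 were above control 3 and 4.

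The raw counts of Ankrd1 were 1497, 1011, 147 and 151 in control and 4, 6, 2 and 2 in PUS10KO. Over the 4 PUS10KO libraries that is 14 counts (exact 95% Poisson interval 7.65 to 23.5, counting error only), against 2806 counts over the 4 control libraries. Control averaged 35.8 ± 33.5 CPM and PUS10KO 0.163 ± 0.0779 CPM (SD, n = 4 each). The highest and lowest control libraries were 10.1-fold apart. By edgeR's quasi-likelihood test the log2 fold change was -7.72 (SE 1.06), with an adjusted p of 0.00203 (Benjamini-Hochberg over all genes tested), a fitted level of 0.475% of control.

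Within numbers the log2 difference of Ankrd1 was -8.37, -7.86, -6.49 and -6.06. The PUS10KO library was the lower one in each pair, with the larger differences in numbers 1 and 2, where control was highest. The replicate block gave -7.65 (SE 0.26, edgeR adjusted p = 1.1e-06). Leaving out any 1 of the 8 libraries kept the call, with values from -8.045 to -7.08. The genes of chromosome 19 had a median log2 fold change of -0.11.

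Across the 10 genes, edgeR's test found that 1 fell (Ankrd1) and 0 rose, where 7.11% of all genes tested fell and 5.9% rose. At an unadjusted p under 0.05 there were 3 (Yap1, Lats1 and Ankrd1), all lower in PUS10KO. The share of all genes under that unadjusted threshold was not computed, so this count has no background beside it. DESeq2 called 2 that fell (Yap1 and Ankrd1) where it called 10.5% of genes. With the replicate block 4 fell (Yap1, Lats1, Ankrd1 and Amotl2) and 0 rose, beside 19.9% of all genes that fell and 19.1% that rose with that block. The median log2 fold change of the 10 genes was -0.48, and over all genes tested it was 0.01.

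**Figure D2:**
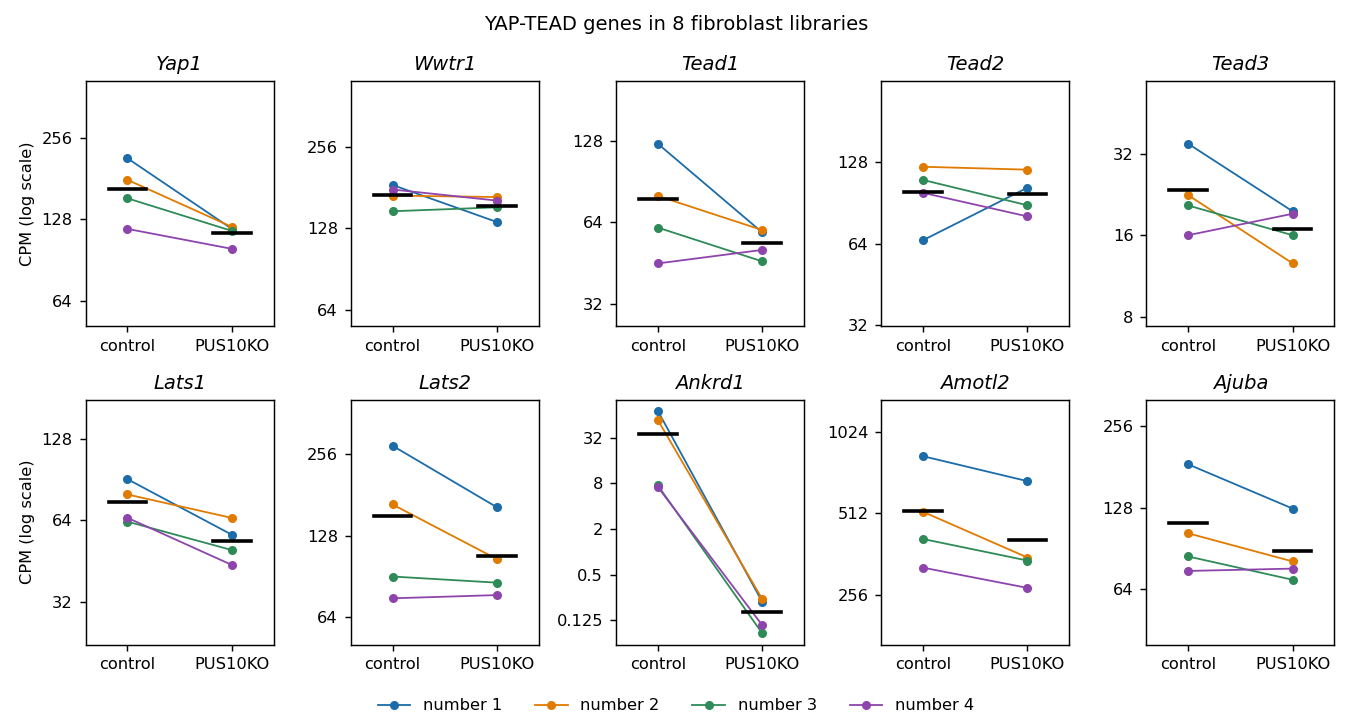
Level of each gene in CPM (log scale) in the 4 control and 4 PUS10KO libraries; dots are libraries, the axis range differs between panels, thin lines join libraries of the same number and black bars are means. Ankrd1 is the only panel in which the genotypes do not overlap, from at least 7.23 CPM in control to at most 0.239 CPM in PUS10KO.

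Neither coactivator gene passed the test with genotype as the only term, and Yap1 came nearer to it than Wwtr1. Yap1 (ENSMUSG00000053110.13, chromosome 9, 7931999 to 8004596, minus strand) had 215, 179, 153 and 118 CPM in control and 118, 120.0, 116 and 99.6 CPM in PUS10KO, with libraries given here and in what follows in the order 1 to 4. The PUS10KO libraries lay close together, near or below the lowest control library, control 4. The means were 166 ± 40.7 and 114 ± 9.46 CPM (SD, n = 4 each), a log2 fold change of -0.55 (SE 0.18, edgeR adjusted p = 0.0842). The difference within numbers was -0.86, -0.57, -0.40 and -0.25 on the log2 scale, lower in PUS10KO in all 4.

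Yap1 passed the test in some settings. With the replicate block the log2 fold change was -0.52 (edgeR adjusted p = 0.00603), DESeq2 gave an adjusted p of 0.0376, and without control 4 edgeR's adjusted p was 0.0279. The median log2 fold change of chromosome 9, which carries both Yap1 and Amotl2, was -0.15. Exons of Yap1 overlap Gm20416 on the opposite strand, and the sources used here do not give the strand setting of the counting.

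Wwtr1 (ENSMUSG00000027803.14, chromosome 3, 57455649 to 57575910, minus strand) encodes TAZ, the paralogue of YAP. It had 185, 169, 148 and 178 CPM in control and 135, 167, 153 and 162 CPM in PUS10KO, with broad overlap. Its log2 fold change of -0.14 did not pass (SE 0.12, edgeR adjusted p = 0.517, or 0.287 with the block). The ratio of its highest to its lowest control library, 1.25, was the smallest of the 10 genes. In PUS10KO this ratio was 1.24, and that of Yap1 was 1.21. Per kilobase of exon, the ratio of Wwtr1 to Yap1 was 2.07 ± 0.57 in control and 2.65 ± 0.39 in PUS10KO (SD, n = 4 each). The ranges overlapped, and the ratio was higher in PUS10KO in all 4 numbers, at 1.67 and 2.22, 1.83 and 2.69, 1.87 and 2.55, and 2.92 and 3.16, which was not tested.

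None of the 3 TEAD genes passed the test of edgeR or DESeq2, and none had an unadjusted p under 0.05 in the former. Tead1 (ENSMUSG00000055320.17, chromosome 7, 112679318 to 112906807, plus strand) had 125, 80.2, 61.3 and 45.2 CPM in control and 58.8, 60.0, 46.0 and 50.7 CPM in PUS10KO. Control 1 and 2 stood above all PUS10KO libraries, control 3 slightly so, and control 4 below them all. Its log2 fold change was -0.53 (SE 0.28, edgeR adjusted p = 0.275, or 0.0754 with the block).

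Tead2, the TEAD gene with the highest level per kilobase here (ENSMUSG00000030796.17, chromosome 7, 45215753 to 45233644, plus strand), had 65.9, 123, 110.0 and 98.6 CPM in control and 103, 120.0, 88.7 and 80.7 CPM in PUS10KO. Control 1 was the lowest of all 8 libraries, the reverse of what the same library showed for Tead1. Its fold change was -0.02 on the log2 scale (SE 0.21, edgeR adjusted p = 0.968), and its sign changed when control 2, control 3, PUS10KO 3 or PUS10KO 4 was left out. Exons of Tead2 overlap Cd37 on the opposite strand.

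Tead3 (ENSMUSG00000002249.21, chromosome 17, 28331671 to 28350817, minus strand) had 34.8, 22.5, 20.6 and 16.0 CPM in control and 19.6, 12.6, 16.0 and 19.2 CPM in PUS10KO. The genotypes overlapped, and in number 4 the PUS10KO library was the higher one. For Tead3 the log2 fold change was -0.48 (SE 0.25, edgeR adjusted p = 0.267, or 0.0837 with the block). Tead4, the remaining family member, named after its values were seen, had 7.04 to 27.6 CPM in control and 8.82 to 17.4 CPM in PUS10KO (log2 fold change -0.39, adjusted p = 0.631; 0.13 without control 1).

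The ratio of Tead2 to Tead1 had a wider spread in control, and that of Tead1 to Tead3 did not. Per kilobase of exon, the Tead2 level over the Tead1 level was 1.49, 4.33, 5.09 and 6.19 in control. In PUS10KO it was 4.95, 5.65, 5.47 and 4.51. Control 1 stood apart with the lowest ratio, and the other 7 libraries lay within a narrower band. Tead1 over Tead3 was 1.60 ± 0.20 in control and 1.64 ± 0.48 in PUS10KO, and Tead2 over Tead3 was 6.60 ± 2.68 and 8.59 ± 3.27 (SD, n = 4 each).

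The LATS kinases, which inhibit YAP and TAZ, were both lower in mean in PUS10KO. Lats1 (ENSMUSG00000040021.13, chromosome 10, 7681214 to 7716460, plus strand) had 90.8, 79.7, 63.3 and 65.4 CPM in control and 56.6, 65.3, 49.7 and 43.8 CPM in PUS10KO. Only PUS10KO 2 reached into the control range, and the PUS10KO library was the lower one in all 4 numbers. The means were 74.8 ± 12.9 and 53.9 ± 9.27 CPM (SD, n = 4 each), with a log2 fold change of -0.47 (SE 0.17, edgeR adjusted p = 0.111, or 0.00514 with the block). The median log2 fold change of chromosome 10 was -0.25.

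Lats2 is itself transcribed in response to YAP and so feeds back on it. The gene (ENSMUSG00000021959.16, chromosome 14, 57689662 to 57758388, minus strand) had 275, 167, 90.6 and 75.3 CPM in control and 163, 105, 86.0 and 77.4 CPM in PUS10KO. The PUS10KO library was lower in numbers 1 to 3 and about level in number 4. For Lats2 the log2 fold change was -0.49 (SE 0.42, edgeR adjusted p = 0.504, or 0.0725 with the block), and it was -0.03 without control 1. Exons of Lats2 overlap Gm49361 on the same strand, so reads shared with it could be counted to either.

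Amotl2, an angiomotin that binds YAP at junctions and is also a YAP target, had the highest level per kilobase of the 10. The gene (ENSMUSG00000032531.15, chromosome 9, 102716672 to 102733418, plus strand) had 832, 519, 412 and 323 CPM in control and 673, 352, 343 and 272 CPM in PUS10KO. The genotypes overlapped widely, yet within each number the PUS10KO library was lower, with log2 differences of -0.31, -0.56, -0.27 and -0.25. The log2 fold change was -0.35 (SE 0.35, edgeR adjusted p = 0.592), and with the replicate block -0.34 (SE 0.08, adjusted p = 0.0125).

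Ajuba, a LIM domain protein that restrains LATS kinases (ENSMUSG00000022178.11, chromosome 14, 54567472 to 54577558, minus strand), had 185, 103, 84.6 and 74.8 CPM in control and 127, 81.1, 69.4 and 76.3 CPM in PUS10KO. Library 1 was the highest in each genotype, and the genotypes overlapped. The log2 fold change was -0.34 (SE 0.31, edgeR adjusted p = 0.541, or 0.054 with the block), and it was 0.02 without control 1.

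**Figure D3:**
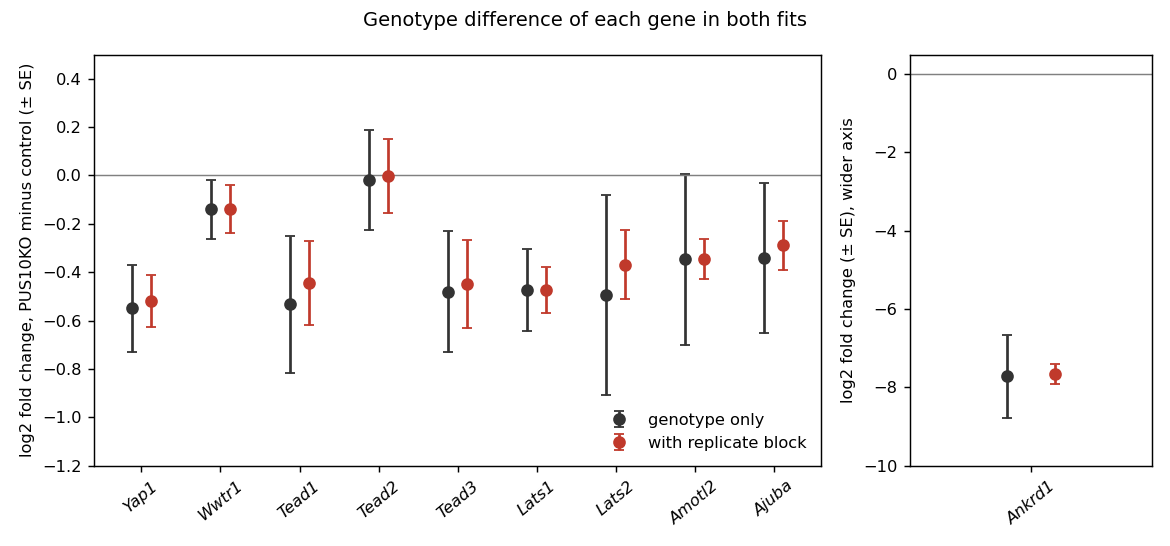
Log2 fold change (PUS10KO minus control, vertical axis) of each gene with its SE, from the fit with genotype only (black) and with the replicate block (red); Ankrd1 has a wider axis of its own. Most values lie between -0.55 and -0.14, Tead2 is near 0, and with the block the SE of Ankrd1 goes from 1.06 to 0.26 and that of Amotl2 from 0.35 to 0.08.

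Counted without regard to number, all 4 PUS10KO values lay below all 4 control values in 1 of the 10 genes (Ankrd1), and in 10.6% of all genes tested. The PUS10KO library was below the control library in all 4 numbers for 4 genes (Yap1, Lats1, Ankrd1 and Amotl2), and for 26.9% of all genes tested. A further pattern ran across numbers rather than genotypes. In 7 of the 10 genes (Yap1, Tead1, Lats1, Lats2, Ankrd1, Amotl2 and Ajuba) libraries 1 and 2 were above libraries 3 and 4 in both genotypes, as they were in 21.8% of all genes tested. For Ankrd1 the order within PUS10KO rests on 4 and 6 against 2 and 2 counts, within counting error. The sources used here do not say what a number shares.

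Levels can be compared between genes only per length. On the scale of CPM per kilobase of merged exons, the order of the control means was Amotl2 (82.9), Wwtr1 (35.6), Ajuba (30.7), Lats2 (21.8), Tead2 (20.7), Yap1 (17.9), Ankrd1 (12.4), Lats1 (10.3), Tead1 (5.75) and Tead3 (3.50). In control all 4 values of Amotl2 were above all 4 of Wwtr1, and every other pair of neighbours overlapped in range. Within each of the 4 libraries Ajuba was also above Lats2, Lats1 above Tead1, and Tead1 above Tead3.

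In PUS10KO the order on this scale was Amotl2 (65.2), Wwtr1 (32.3), Ajuba (24.3), Tead2 (20.5), Lats2 (15.5), Yap1 (12.3), Lats1 (7.38), Tead1 (3.97), Tead3 (2.51) and Ankrd1 (0.0564). Ankrd1 was the last in PUS10KO. Its place in the control order rests on control 1 and 2 (25.2 and 19.2 CPM per kilobase), since in control 3 and 4 (2.62 and 2.51) it lay near Tead3 (3.07 and 2.39). The steps from Amotl2 to Wwtr1, and from Yap1 through Lats1, Tead1 and Tead3 to Ankrd1, held without overlap between libraries. With the longest transcript as the length, Yap1 moved to the fourth place in control (31.5), and the ratio of Wwtr1 to Yap1 was 1.20 ± 0.33 in control and 1.54 ± 0.23 in PUS10KO. Tead1 and Tead3 then overlapped in PUS10KO, with Tead1 above in 2 of the 4 libraries. The relative level of TAZ and YAP transcripts therefore depends on the gene model.

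**Figure D4:**
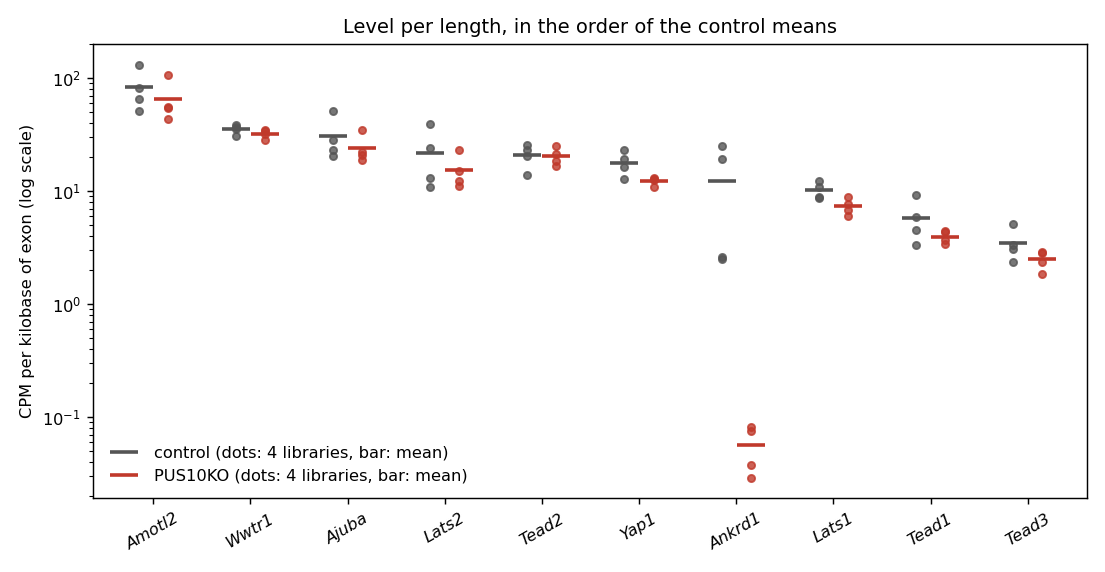
CPM per kilobase of merged exons (log scale) of the 10 genes in the order of their control means; dots are the 4 libraries of a genotype, bars their means. Amotl2 leads in both genotypes (82.9 and 65.2), and Ankrd1 drops from 12.4 to 0.0564.

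Most other YAP and TAZ target genes did not pass the test with genotype as the only term, and more passed with the replicate block. Of 36 tested genes of a target list, 4 of them among the 10, 3 fell (Ankrd1, Rbms3 and Col8a1), 1 rose (Foxf2) and 32 did not pass the test, beside 7.11% and 5.9% of all genes. The list had a median log2 fold change of -0.38. With the replicate block 16 fell and 4 rose, beside 19.9% and 19.1% of all genes.

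The matricellular protein genes Ccn2 and Ccn1 are the other common readouts of YAP and were named after their values were seen. Neither passed the test with genotype as the only term. Ccn2 had 5949, 2569, 374 and 310 CPM in control and 1221, 427, 74.7 and 54.1 CPM in PUS10KO. Its genotypes overlapped because libraries 1 and 2 were far above 3 and 4, yet within every number PUS10KO was lower, with log2 differences from -2.59 to -2.28. The log2 fold change was -2.37 (SE 1.21, edgeR adjusted p = 0.258), and with the replicate block -2.43 (SE 0.09, adjusted p = 1.46e-06).

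Ccn1 had 1335, 533, 153 and 102 CPM in control and 975, 353, 182 and 139 CPM in PUS10KO. It was lower in PUS10KO in numbers 1 and 2 and higher in numbers 3 and 4. Its log2 fold change was -0.37 (edgeR adjusted p = 0.835), -0.09 with the block (adjusted p = 0.694), and 0.67 without control 1. The spread of Ccn1 between libraries of a genotype, 13.1-fold in control and 7.03-fold in PUS10KO, was thus larger than its difference between genotypes.

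**Figure D5:**
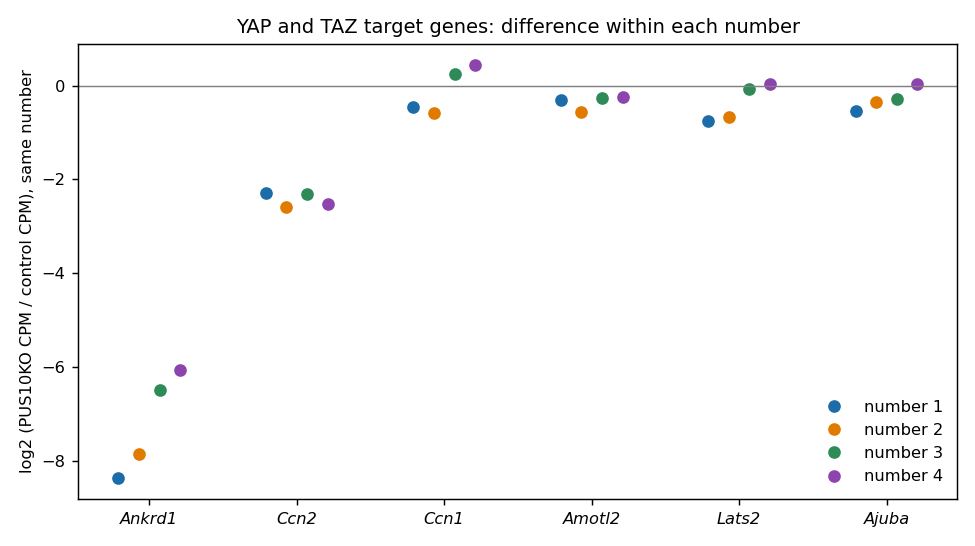
Log2 ratio of the PUS10KO to the control library of the same number for 6 YAP and TAZ target genes; each dot is 1 number, and the grey line marks no difference. Ankrd1 (-8.37 to -6.06) and Ccn2 (-2.59 to -2.28) lie below the line in all 4 numbers, and Ccn1 stands on both sides of it.

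Among the targets that did pass, Rbms3, an RNA-binding protein gene, had 96.4 to 117 CPM in control and 35.6 to 53.8 CPM in PUS10KO (log2 fold change -1.38, edgeR adjusted p = 0.000876). Col8a1, a short-chain collagen gene, had 290 to 526 CPM in control and 91.5 to 155 CPM in PUS10KO (log2 fold change -1.78, adjusted p = 0.00276). Both falls were smaller than that of Ankrd1, and for both the genotypes did not overlap. Foxf2, a forkhead factor of mesenchyme, rose from 2.01 ± 0.54 to 4.86 ± 1.17 CPM (SD, n = 4 each; log2 fold change 1.27, edgeR adjusted p = 0.0196, or 0.058 without PUS10KO 2).

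Upstream of LATS, the Hippo list of kinases, scaffolds and inputs held calls in both directions. Of 33 tested genes 3 rose (Map4k3, Dchs1 and Stk24), 3 fell (Tnik, Map4k5 and Rassf5) and 27 did not pass, with a median log2 fold change of -0.10, beside 5.9% of all genes that rose and 7.11% that fell. With the replicate block 6 rose and 10 fell, beside 19.1% and 19.9%. The kinases MAP4K3, MAP4K5 and TNIK belong to a family that can activate LATS. Tnik had 4.02 to 18.1 CPM in control and 0.464 to 1.1 CPM in PUS10KO (log2 fold change -3.77, SE 0.57, edgeR adjusted p = 0.00331). Map4k3 moved the other way, from 97.5 ± 26.5 to 226 ± 45.4 CPM (SD, n = 4 each; log2 fold change 1.21, edgeR adjusted p = 0.00686).

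The remaining calls of the Hippo list were less firm. Dchs1, an atypical cadherin, had a log2 fold change of 1.55 (edgeR adjusted p = 0.0239), a call that survived leaving out control 3 or PUS10KO 1 and no other library (highest adjusted p 0.0601). Map4k5 had -0.74 (adjusted p = 0.0284), which survived leaving out control 3, control 4 or PUS10KO 1 only (highest 0.0869). It lies on chromosome 12, whose median log2 fold change was -0.60. Stk24, a kinase tied to the phosphatase complex that acts on the Hippo kinases, had 0.52 (adjusted p = 0.0363), and Rassf5, an adaptor of those kinases, -1.02 (adjusted p = 0.0493). The call of Stk24 survived leaving out control 2 or PUS10KO 4 only (highest 0.0933), and that of Rassf5 leaving out PUS10KO 1 only (highest 0.13). Both were named after their values were seen.

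Of 26 tested binding partners and cofactors of YAP and TAZ, 3 fell (Amotl1, Ywhaq and Rnf146), none rose and 23 did not pass, with a median log2 fold change of -0.05, beside 7.11% of all genes that fell. With the replicate block 4 fell and 0 rose, beside 19.9% and 19.1%. The angiomotin gene Amotl1, a paralogue of Amotl2, had 221 to 250 CPM in control and 134 to 161 CPM in PUS10KO (log2 fold change -0.71, SE 0.11, edgeR adjusted p = 0.0035). Its control and PUS10KO libraries did not overlap, unlike those of Amotl2. Ywhaq, one of the 14-3-3 proteins that retain phosphorylated YAP, fell (log2 fold change -0.64, adjusted p = 0.00785) and lies on chromosome 12, with its median of -0.60. Rnf146, a ubiquitin ligase that marks angiomotins for degradation, had -0.49 (adjusted p = 0.0206). That call was lost when control 3, control 4, PUS10KO 1 or PUS10KO 3 was left out (highest adjusted p 0.0705).

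Palld and Des stand for the sarcomere partners of Ankrd1, of which these 2 of 9 listed genes had a row; the others were not analysed here. The actin-binding protein gene Palld had 205, 132, 105 and 71.8 CPM in control and 71.7, 70.0, 70.5 and 91.6 CPM in PUS10KO. Its log2 fold change was -0.76 (edgeR adjusted p = 0.13, or 0.0666 with the block). Without control 4 it passed the test, with an adjusted p of 0.0385. Des, the desmin gene, was low in all libraries, with at most 1.8 CPM, and did not pass (log2 fold change -0.23, adjusted p = 0.699).

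Some markers of contractile cells also fell. Of 7 smooth muscle markers 6 had a row, and 4 of these fell (Acta2, Tagln, Myh11 and Lmod1, named after their values were seen), none rose and 2 did not pass, beside 7.11% of all genes that fell. With the replicate block 5 fell and 1 rose, beside 19.9% and 19.1% of all genes. DESeq2 called 4 that fell, beside 10.5% of all genes, and 1 that rose, beside 1146 of 12203 genes. Their summed level was 6646 to 19810 CPM in control and 2600 to 3593 CPM in PUS10KO, without overlap. Most of this sum was Acta2 and Tagln, the latter with 1672 to 5198 CPM in control and 453 to 1035 CPM in PUS10KO. Acta2, smooth muscle actin, had 14070, 14958, 6166 and 4904 CPM in control and 2466, 2238, 2212 and 2077 CPM in PUS10KO (log2 fold change -2.16, edgeR adjusted p = 0.00528). As for Ankrd1, control libraries 1 and 2 were above 3 and 4. The call of Lmod1 was lost when PUS10KO 2, PUS10KO 3 or PUS10KO 4 was left out (highest adjusted p 0.0672), and that of Myh11 by limma voom (0.0673).

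Of 19 skeletal and cardiac muscle markers 5 had a row, and 1 fell, beside 7.11% of all genes. That was Acta1, named after its values were seen, which is nearly identical in sequence to other actin genes, so its counts are uncertain. By limma voom its adjusted p was 0.0569, and with the replicate block 2 of the 5 fell. The summed level of these 5 was 16.0 to 162 CPM in control and 5.79 to 9.81 CPM in PUS10KO. Much of the control sum was Acta1 alone, with 151, 43.5, 17.9 and 8.62 CPM in control and 0.636 to 2.37 CPM in PUS10KO. Markers of other cells were low, at 5.47 to 8.45 CPM in control and 3.10 to 5.15 CPM in PUS10KO for 3 endothelial markers and at most 6.62 CPM for 2 immune markers. The 2 epithelial and mesothelial markers with a row had 74.6 to 223 CPM in control and 12.3 to 22.0 CPM in PUS10KO. Of these 1 fell by edgeR's test, and 2 with the block. Of the endothelial markers 0 fell by edgeR's test, 1 by DESeq2 and 2 with the block. By edgeR 1 had an unadjusted p under 0.05, for which no share of all genes was computed. Of all genes 7.11% fell by edgeR's test, 19.9% with the block and 10.5% by DESeq2. The part of contractile or other cells in the level of Ankrd1 was not tested.

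The genes with the pattern most like that of Ankrd1 were found by the root mean square difference of log2 CPM over the 8 libraries, each gene centred on its own mean. It was computed for the 10972 genes whose mean log2 CPM reached 1, and its median was 3.42. The nearest were Alkal1, a ligand of the ALK receptor kinase (0.772), Hey2, a Notch-induced repressor (0.983), BC034090 (1.01), Ptprz1, a receptor tyrosine phosphatase (1.04), and Ryr3, an intracellular calcium channel (1.08). None of them stood in the YAP and TAZ target list. The other 9 of the 10 genes ranked from 936 (Tead1) to 5918 (Tead2).

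These near genes shared the low PUS10KO level and in part the order of the control libraries. That likeness follows from how they were picked, over the same 8 libraries, and is description only. Alkal1 had 46.1, 22.5, 10.6 and 10.1 CPM in control and 0.551, 0.318, 0.295 and 0.216 CPM in PUS10KO. Ptprz1 had 168, 91.0, 38.3 and 31.0 CPM in control and 4.52, 1.95, 2.36 and 1.62 CPM in PUS10KO. Hey2 had 7.8 to 17.0 CPM in control and at most 0.331 CPM in PUS10KO, with 0 counts in PUS10KO 4. BC034090 differed in being even across control libraries, at 16.4 to 22.0 CPM, and had at most 0.11 CPM in PUS10KO.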

How the data were processed

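RNA sequencing counts of 4 control and 4 PUS10KO libraries were used, grouped by title. The authors deposited whole-number counts per gene and a second table, read here as log2 values from their range since no source states the scale. The submitters' processing notes list STAR 2.7.8a, DESeq2 and mm10 without roles. Not given in the sources used here were the counter, strand setting and annotation. In the deposited log2 values the sum of the control and PUS10KO values of a number was the same for all 4 numbers in every gene. Differences between numbers had thus been removed.

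The test was edgeR 4.0.16 in R 4.3.3 (filterByExpr, TMM, quasi-likelihood test, genotype as the only term, Benjamini-Hochberg over 11909 genes, threshold 0.05), which was tested on simulated data. Rose and fell mean an adjusted p under 0.05. Alternatives were the replicate block, DESeq2 size factors, DESeq2 1.42.0, limma 3.58.1 voom, no filter, each library left out, the authors' log2 values, and the longest transcript as length. Deviations from genotype means correlated between same-numbered libraries (r = 0.681, 0.722, 0.633 and 0.687 across genes). Between different numbers r was lower, at 0.303 and 0.0416 within numbers 1 and 2, and 0.582 and 0.503 within numbers 3 and 4. From number 1 or 2 to number 3 or 4 it was negative, from -0.637 to -0.324. Deviations from a genotype mean cancel out over its libraries, so some negative r had to accompany the positive ones. Same-numbered libraries were treated as pairs in the block, and this pairing comes from the counts, not the labels. Positions and lengths came from GENCODE M21, promoters from RefSeq.

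Members and lists were chosen with earlier results of these data known. The genes named were the 10 members, up to 4 called genes of each pathway list by lowest p (the 2 with the highest level where none was called), the 5 genes nearest to Ankrd1 and Pus10; others are said to have been named after their values were seen. The result of 1 further pathway list is not reported here.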

Additional observations from a re-analysis of the deposited data

Results flagged for a closer look

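In 86 groups of 4 libraries of a genotype, 1 library stood far from the others in 6, by Dixon's ratio of its gap to the whole range at the 95% level. Chance alone marks about 1 group in 20. None of the 10 genes was among them. Tnik had 1.1 CPM in PUS10KO 1, above 0.464 to 0.541 CPM in the other PUS10KO libraries. Dchs1 had 2.88 CPM in control 3, above 1.02 to 1.24 CPM. Rbms3 had 96.4 CPM in control 3, below 114 to 117 CPM. Palld had 91.6 CPM in PUS10KO 4, above 70.0 to 71.7 CPM. Tead4 had 17.4 CPM in PUS10KO 1, above 8.82 to 9.67 CPM, and Rassf5 had 5.84 CPM there, above 3.06 to 3.38 CPM.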

How the results depend on the processing

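Of the 10 genes, 1 fell in the fit reported above. The count was 4 with the replicate block, 2 by DESeq2, 4 with the authors' log2 values and the replicate block, and 1 to 2 with 1 library left out (2 without control 4); 0 rose in each. Over all genes tested, 703 rose: 2273 with the replicate block, 1146 by DESeq2, 2400 with the authors' log2 values, and 492 to 638 with 1 library left out. The 847 that fell became 2368, 1287, 2405 and 520 (without PUS10KO 3) to 728, with 560 without PUS10KO 2. Ankrd1 kept its direction and call in every alternative run, with a log2 fold change of -3.07 on the authors' scale. By limma voom the call was narrow (log2 fold change -6.95, adjusted p = 0.0469). Signs changed without a call for Tead2, at 0.00146 by limma voom, 0.0035 with the authors' values and -0.16 to 0.10 with 1 library left out (above 0 without control 2, control 3, PUS10KO 3 or PUS10KO 4). With 1 library left out they also changed for Ajuba (-0.57 to 0.025), Ccn1 (-1.24 to 0.67) and Tead4 (-0.68 to 0.13), each above 0 only without control 1. In all, 125 of 140 alternatives for the 10 genes kept direction and side of the threshold, 8 passed it newly and 7 changed sign. The same 5 genes were nearest to Ankrd1 with DESeq2's size factors. The cause of these changes was not tested. At 2 to 6 counts per PUS10KO library, differences of Ankrd1 among those libraries were not detectable beyond counting error.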
